A study of Homo sapiens with 96 samples.

Results

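The comparison described here is between A549 cells that received the PRMT5 inhibitor GSK591 together with the Type I PRMT inhibitor MS023 and A549 cells that received GSK591 alone, both for 4 days. A549 is an established human lung adenocarcinoma line. The GSK591 group received 1 µM GSK591, the co-treatment group received 1 µM GSK591 and 1 µM MS023, and each group has 3 poly(A)-RNA seq libraries, so 6 of the 96 samples of the series enter the comparison. GSK591 is thus present on both sides, and the difference is between giving MS023 and not giving it where PRMT5 is inhibited. Both inhibitors were present for the same days, as parallel treatments. For reference, the same contrast was read in cells without GSK591 (1 µM MS023 against 0.01% DMSO, 4 days) and after 2 days of treatment (co-treatment against GSK591), with 3 libraries in every group. Neither of these reference comparisons shares a library with the main one. The labels do not say whether the libraries of a group came from separate cultures, so the spread between them may be technical. The p-values rest on read counts and on a spread pooled in part over the events of a type. They do not measure the spread of 1 event's own libraries alone. Each inhibitor group had been tabulated against DMSO by the authors, so the events analysed are those listed in both 4-day tables with the same type, chromosome, strand and ends. There were 106631 such events, out of 131062 listed for GSK591 and 134064 for co-treatment. The types are SE (an exon skipped or included), MXE (1 of a pair of exons used), A3SS (a choice of acceptors) and A5SS (a choice of donors). Of these, 92007 had at least 10 reads in each of the 6 libraries and were tested.

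Protein arginine methyltransferases (PRMTs) place methyl groups on arginines of many RNA-binding proteins. Type I enzymes make asymmetric dimethylarginine and PRMT5, the main Type II enzyme, makes symmetric dimethylarginine, in part on the Sm proteins of the spliceosomal snRNPs. Whether an exon is spliced in depends on how its acceptor (3′ splice site) and donor (5′ splice site) are read by the spliceosome and by SR and hnRNP proteins, which are substrates of these enzymes. Inclusion is given as Ψ, the share of transcripts that hold the alternative segment, from 0 to 1. It was computed from the inclusion and skipping reads of each library after division by the effective length of each form. ΔΨ is Ψ in co-treatment minus Ψ in GSK591. As Ψ is a share within 1 gene in 1 library, it says nothing of the level of the gene's mRNA, and in bulk cells a change of splicing in all cells cannot be told apart from a larger change in some of them.

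Of the named exons that lie entirely in coding sequence, 5 are shown first, from GRCh37. Exon bases are in capitals and intron bases in lower case, and the strand is that of the transcript. In SEC31A, RALGPS2, IFT27, SMARCC2 and CASP8 the entry or loss of the exon alters the protein. The exons of SEC31A, RALGPS2 and SMARCC2 rose and those of IFT27 and CASP8 fell, and IFT27 is also shown because its donor begins with gc where nearly all donors begin with gt.
SEC31A exon of 39 nt, chr4:83752084-83752148, minus strand: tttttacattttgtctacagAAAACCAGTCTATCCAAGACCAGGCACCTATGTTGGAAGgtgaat
RALGPS2 exon of 78 nt, chr1:178861345-178861448, plus strand: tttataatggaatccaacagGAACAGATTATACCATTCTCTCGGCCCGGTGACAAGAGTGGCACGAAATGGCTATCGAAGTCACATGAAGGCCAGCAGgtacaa
IFT27 exon of 60 nt, chr22:37162176-37162261, minus strand: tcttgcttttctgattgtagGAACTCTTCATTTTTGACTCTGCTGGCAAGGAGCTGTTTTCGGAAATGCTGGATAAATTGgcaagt
SMARCC2 exon of 66 nt, chr12:56558081-56558172, minus strand: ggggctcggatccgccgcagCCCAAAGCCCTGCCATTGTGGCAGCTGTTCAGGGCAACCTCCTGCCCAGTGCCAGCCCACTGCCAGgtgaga
CASP8 exon of 45 nt, chr2:202137601-202137671, plus strand: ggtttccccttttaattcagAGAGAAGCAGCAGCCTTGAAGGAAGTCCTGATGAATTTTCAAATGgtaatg
These 5 exons have lengths that are multiples of 3, so each can be included or skipped without a change of reading frame. Not all named exons in coding sequence do so, as that of ALKBH3, not shown here, has 89 nt.

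Adding MS023 to GSK591 moved exon choice in both directions. Of 66618 SE events tested, 3833 (5.75%) were called at an adjusted p under 0.05, of which 1846 had a higher and 1987 a lower Ψ in co-treatment. The called events lie in 2393 genes. Of 15666 MXE events 873 (5.57%) were called, with 308 higher and 565 lower, where Ψ is the share of the exon that comes first in the transcript. Of 5879 A3SS events 192 (3.27%) were called, and of 3844 A5SS events 192 (4.99%). These split evenly, with 94 higher and 98 lower A3SS and 93 higher and 99 lower A5SS, where Ψ is the share of the longer exon form. Retained introns (RI), given as a reference, had 350 of 3924 events called (8.92%), with 146 higher and 204 lower. The median absolute ΔΨ of called SE was 0.0884, against 0.00743 over all tested SE, and 1747 of the called SE moved by 0.1 or more. The number called depended on the test. A dispersion that follows the reads of the rarer form called 2567 SE, limma on log2 odds with precision weights called 768, and limma on unweighted log2 odds called 0 SE, although 7963 had an unadjusted p under 0.05 in that test. Leaving out 1 library called 2143 to 2824 SE, the fewest without co-treatment library a and the most without co-treatment library b, where a, b and c give the order of the 3 values in the tables. In the same fits MXE calls ranged from 529 (without co-treatment library a) to 734, A3SS calls from 102 (without co-treatment library c) to 145, A5SS calls from 85 (without GSK591 library a) to 194, and RI calls from 231 (without co-treatment library a) to 299.

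**Figure D1:**
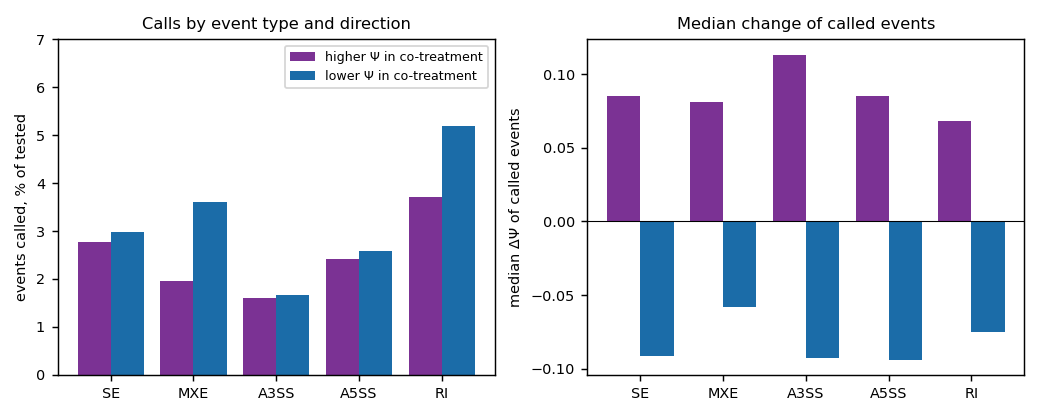
Left, events called in co-treatment against GSK591 at 4 days as a percentage of events tested, for each event type, split by direction. Right, median ΔΨ of the called events of each direction. SE, A3SS and A5SS calls split near evenly, while 565 of 873 MXE calls and 204 of 350 RI calls were lower in co-treatment.

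The average over all events moved far less than the called events. Median Ψ over tested SE was 0.990 in each group and differed by less than the spread between libraries (two-sided exact permutation test, p = 0.7). Median Ψ of MXE was 0.485 ± 0.0011 in GSK591 and 0.479 ± 0.0012 in co-treatment (SD, 3 libraries each), with no overlap between libraries (exact permutation p = 0.1, the smallest that 3 against 3 libraries allow). Median Ψ of RI was 0.285 ± 0.0044 in GSK591 and 0.270 ± 0.0036 in co-treatment, again without overlap (exact permutation p = 0.1). For A3SS the medians were 0.877 and 0.868 (exact permutation p = 0.1) and for A5SS 0.858 and 0.855 (exact permutation p = 0.5). The tested SE events held 43845347 to 54123363 reads in each library, with a read counted again for each overlapping event. On SE with at least 20 reads of each form in a pair of libraries, libraries of 1 group differed by 2.31 to 2.60 times the sampling variance. The median dispersion of the model was 1.89 over tested SE with reads of both forms. The former values are means over deeper events, so whether the model covers this spread cannot be read from them. A dispersion that follows the reads of the rarer form called 2567 SE in place of 3833. The epithelial keratins KRT7, KRT8 and KRT18 had at least 21764 reads per library on their deepest events, CDH1 had 235 to 373 and EPCAM 13 to 44, while KRT19 had no event listed. The fibroblast marker COL1A1 had 5 to 32 reads, and no event was listed for COL1A2, PDGFRB, the blood markers PTPRC and CD3E or the endothelial markers PECAM1 and VWF. As only splicing events are listed, a missing event does not show that a gene is not expressed.

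Among called SE with at least 50 reads in every library and groups that do not overlap, the largest rise was in ERCC8, whose product CSA acts in transcription-coupled DNA repair. The exon (chr5:60187864-60189470, 1607 nt, minus strand) is untranslated in the annotation, where an exon of GNL3LP1 on the same strand overlaps it. Inclusion reads over the 3 libraries were 534 with GSK591 and 1891 with co-treatment, and skipping reads were 262 and 55. Whether some inclusion reads came from GNL3LP1 was not tested. The Ψ of the ERCC8 exon was 0.168, 0.161 and 0.121 in the GSK591 libraries and 0.688, 0.806 and 0.746 in the co-treatment libraries, so the groups lie far apart. The means were 0.150 ± 0.026 and 0.747 ± 0.059, with ΔΨ = 0.597 ± 0.037 (SE) and an adjusted p of 6e-51. In cells without GSK591, MS023 raised the same exon by 0.322.

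In SEC31A, a coat protein of COPII vesicles that leave the endoplasmic reticulum, the 39-nt exon shown above went from a minor to the main form. Its Ψ was 0.291, 0.358 and 0.359 with GSK591 and 0.849, 0.842 and 0.919 with co-treatment, a ΔΨ of 0.534 ± 0.033 (adjusted p = 2e-49). DEPDC1, a gene expressed in dividing cells, carries a coding exon of 852 nt (chr1:68947729-68948580) that behaved in the same way. Its Ψ was 0.209, 0.263 and 0.200 with GSK591 and 0.736, 0.747 and 0.791 with co-treatment, a ΔΨ of 0.534 ± 0.026 (adjusted p = 4.3e-38). The groups did not overlap in either gene, as naming required.

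RALGPS2, a guanine nucleotide exchange factor for Ral GTPases, gained its 78-nt exon. Its Ψ was 0.344, 0.244 and 0.228 with GSK591 and 0.768, 0.748 and 0.827 with co-treatment (ΔΨ = 0.509 ± 0.043, adjusted p = 6.55e-21). FUT8, which adds core fucose to N-glycans, rose from 0.113, 0.143 and 0.159 to 0.575, 0.638 and 0.547 on an exon of 102 nt (chr14:66083808-66083909) that holds 95 coding bases in the annotation. The ΔΨ of FUT8 was 0.448 ± 0.030 (adjusted p = 1.4e-15). FLRT3, a cell adhesion protein, rose on an untranslated exon of 194 nt (chr20:14309780-14309973) from a mean of 0.435 ± 0.0738 to 0.879 ± 0.0695 (adjusted p = 3.9e-11). The groups of all 3 exons did not overlap, as naming required.

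Among exons that fell under the same conditions, NTAN1, an amidohydrolase of the N-degron pathway, had the largest mean change and also the widest spread. Its coding exon of 103 nt (chr16:15141854-15141956) had a Ψ of 0.870, 0.842 and 0.719 with GSK591 and of 0.408, 0.133 and 0.441 with co-treatment (ΔΨ = -0.483 ± 0.108, adjusted p = 7.1e-11). With 56 to 96 reads per library this is a shallow event, and the co-treatment library at 0.133 stands apart from the other two. PHB2, a prohibitin of the inner mitochondrial membrane, was far tighter. Its 165-nt exon (chr12:7076334-7076498) had a Ψ of 0.935, 0.925 and 0.930 with GSK591 and of 0.483, 0.485 and 0.496 with co-treatment, on 815 to 1249 reads per library (ΔΨ = -0.442 ± 0.0051, adjusted p = 6.2e-124).

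PHB2 also changed at the acceptor of this exon, which has 2 sites 97 nt apart. The share of the upstream site was 0.772, 0.697 and 0.650 with GSK591 and 0.412, 0.472 and 0.402 with co-treatment (ΔΨ = -0.278 ± 0.042, adjusted p = 1.7e-14). The competing sites are shown because the same exon was thus both skipped more often and shortened more often. The upstream site is followed by CCC and the downstream one by CAC.
PHB2 upstream acceptor, chr12:7076496-7076518, minus strand: cgcaaccttggatctgacagCCC
PHB2 downstream acceptor, chr12:7076399-7076421, minus strand: ccctcctcaccttggagaagCAC
The skipped-exon and acceptor events of PHB2 share reads and are not independent.

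EPB41L1, a membrane cytoskeleton protein, lost a coding exon of 411 nt (chr20:34797410-34797820). Its Ψ was 0.625, 0.611 and 0.656 with GSK591 and 0.200, 0.196 and 0.235 with co-treatment (ΔΨ = -0.420 ± 0.018, adjusted p = 9.3e-101). MS023 lowered it by nearly as much without GSK591, from 0.609 in DMSO to 0.241. ATG16L1, which conjugates LC3 to autophagosomal membranes, fell from 0.477, 0.534 and 0.529 to 0.078, 0.138 and 0.070 on a 57-nt exon (chr2:234182367-234182423, adjusted p = 7.8e-42). ARHGEF12, an exchange factor for RhoA, fell from 0.520, 0.453 and 0.573 to 0.099, 0.111 and 0.109 on another exon of 57 nt (chr11:120280103-120280159, adjusted p = 1.4e-21). IFT27, a subunit of the intraflagellar transport complex, fell from 0.847, 0.807 and 0.829 to 0.534, 0.322 and 0.381 on the 60-nt exon with a gc donor (ΔΨ = -0.415 ± 0.064, adjusted p = 5e-20). In these 4 exons, as in every named event, groups that do not overlap were a condition of naming. Of the 3833 called SE, 3468 (90.5%) met it, a share that the call itself favours. The share over all tested SE was not counted, so this one is no support for the calls.

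**Figure D2:**
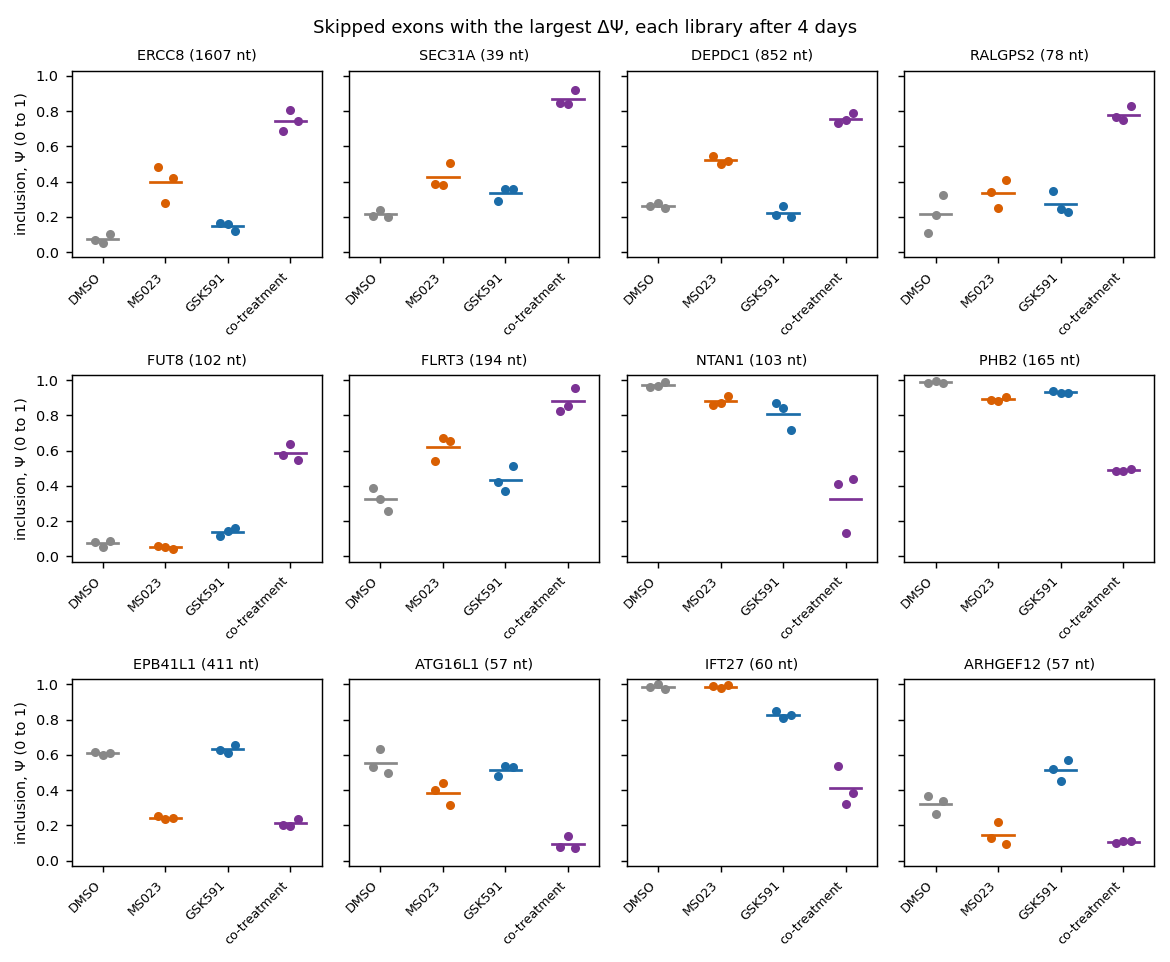
Ψ of 12 skipped exons, the 6 with the largest ΔΨ in each direction among called events with at least 50 reads in every library and groups that do not overlap, 1 event per gene, with 1 point per library and a line at the mean of the 3 libraries of each group after 4 days. The 6 exons from ERCC8 to FLRT3 are highest in co-treatment. In the 6 exons from NTAN1 to ARHGEF12 every co-treatment library lies below every GSK591 library, which the choice of events required.

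The donors of the rising exons of ERCC8, DEPDC1 and FUT8 are shown because these exons end in A, where the last exon base pairs with U1 snRNA and is most often G. The last exon base and the intron bases that follow are the part read by U1.
ERCC8 donor, chr5:60187858-60187866, minus strand: AGAgtaaga
DEPDC1 donor, chr1:68947723-68947731, minus strand: AAAgtaagg
FUT8 donor, chr14:66083907-66083915, plus strand: CAAgtaaga
Most exons that rose nevertheless end in G. Counting each exon once, 83.6% of the 1711 exons that rose and 70.6% of the 1854 that fell ended in G, against 79.5% of the 50592 exons tested. Among exons that moved by 0.1 or more the shares were 83.1% and 71.1%. In the 2-day libraries, exons that rose and fell in co-treatment against GSK591 ended in G in 81.9% and 68.6% of cases. These libraries are separate, but the exons are partly the same. Of 2988 SE called at 2 days and tested at 4 days, 1411 were called at both. With MS023 against DMSO the shares were 83.4% and 78.2%.

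Exons that rose and fell also differed in their surroundings. The median upstream intron was 1237 nt for exons that rose and 2137 nt for those that fell, against 2025 nt over all tested exons, and the median downstream intron was 1162 nt and 2154 nt against 1890 nt. At 2 days the median upstream introns of exons that rose and fell were 1654 and 1574 nt. Exon length differed little, with medians of 122 nt and 109 nt. The share with a length that is a multiple of 3 was 44.5% and 47.1%, against 41.3% over all tested exons. The median Ψ in GSK591 was 0.641 for exons that rose and 0.930 for those that fell. These are descriptions of the called exons, which also had more reads (a median of 1964 and 2132 over the 6 libraries against 1401), and exons are not independent replicates.

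In MXE events 1 of 2 adjacent exons is used, and Ψ gives the share of the upstream one. PUS1, a pseudouridine synthase, turned from the downstream to the upstream exon. The Ψ of its exon of 112 nt (chr12:132417267-132417378) was 0.282, 0.266 and 0.253 with GSK591 and 0.766, 0.783 and 0.750 with co-treatment (ΔΨ = 0.50 ± 0.013, adjusted p = 6e-32). SEC31A held a second event far from the first, where an exon of 39 nt (chr4:83783687-83783725) replaced one of 78 nt, with a Ψ of 0.265 ± 0.011 with GSK591 and 0.640 ± 0.0089 with co-treatment (adjusted p = 4.6e-13). RTN4, a reticulon of the endoplasmic reticulum, moved from an exon of 57 nt to the coding exon of 2400 nt. Its Ψ was 0.769, 0.575 and 0.533 with GSK591 and 0.287, 0.254 and 0.266 with co-treatment (adjusted p = 3.6e-09). RPL37A, a protein of the large ribosomal subunit, fell from 0.903 ± 0.013 to 0.595 ± 0.012 (adjusted p = 2.7e-39). The 873 called MXE lie in 571 genes, so several events of 1 gene often share exons and reads.

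Alternative donors gave 1 of the largest changes of all. ENSA, an inhibitor of the phosphatase PP2A-B55, has donors 69 nt apart in coding sequence (chr1:150599874-150599942). The share of the downstream donor, which gives the longer exon, was 0.292, 0.222 and 0.242 with GSK591 and 0.863, 0.791 and 0.857 with co-treatment (ΔΨ = 0.585 ± 0.031, adjusted p = 9.7e-15). The pair is shown because use passed from the upstream donor to one whose intron begins with gttcta.
ENSA downstream donor, chr1:150599868-150599876, minus strand: GAGgttcta
ENSA upstream donor, chr1:150599937-150599945, minus strand: GGGgtatgg
WDR60, a dynein intermediate chain of cilia, rose from 0.237, 0.201 and 0.206 to 0.459, 0.654 and 0.709 (adjusted p = 3.9e-06). C5orf42, a ciliary protein listed as CPLANE1 in the annotation, was at 0.476, 0.520 and 0.481 with GSK591 and at 1 in each co-treatment library, but this rests on 11 reads of the shorter form in GSK591 and 0 in co-treatment (adjusted p = 0.032). POMT1, an O-mannosyltransferase, fell from 0.953 ± 0.045 to 0.667 ± 0.044 (adjusted p = 0.015), BRPF1, a scaffold of histone acetyltransferases, from 0.544 ± 0.087 to 0.294 ± 0.108 (adjusted p = 0.0059), and WBSCR22, an rRNA methyltransferase, from 0.704 ± 0.039 to 0.474 ± 0.0999 (adjusted p = 0.011). For POMT1 there were 3 reads of the shorter form over the GSK591 libraries and 32 over those of co-treatment. Without 1 library the adjusted p reached 0.134 for C5orf42, which was lost in all 6 such fits, 0.112 for POMT1 (without GSK591 library c), 0.0914 for BRPF1 (GSK591 library b) and 0.163 for WBSCR22 (co-treatment library a).

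Alternative acceptors were called least often. RBM41, a protein of the minor spliceosome, rose from 0.493, 0.598 and 0.702 to 0.920, 0.902 and 0.903 (adjusted p = 0.018), on only 2 reads of the shorter form in each co-treatment library. D2HGDH, a mitochondrial dehydrogenase, rose from 0.410, 0.621 and 0.502 to 0.775, 0.819 and 0.815 (adjusted p = 0.00025), and CEP70, a centrosomal protein, from 0.405, 0.593 and 0.267 to 0.752, 0.647 and 0.722 (adjusted p = 0.0032). SMYD2, a lysine methyltransferase, fell from 0.969, 0.702 and 0.977 to 0.608, 0.568 and 0.534 (adjusted p = 0.00065). It had 17 reads of the shorter form over the GSK591 libraries and 67 over those of co-treatment. C9orf89, listed as CARD19 in the annotation, fell from 0.979 ± 0.022 to 0.696 ± 0.065 (adjusted p = 2.1e-06), with 3 reads of the shorter form over the GSK591 libraries and 66 over those of co-treatment. Without 1 library the adjusted p reached 0.135 for RBM41 (co-treatment library a), 0.256 for CEP70 and 0.122 for SMYD2 (both GSK591 library c). The longer form of RBM41, D2HGDH, SMYD2, C9orf89, WDR60, C5orf42 and WBSCR22 includes 768 to 3250 nt more than the shorter form, so most inclusion reads fall within that stretch. The median distance between acceptors was 165 nt in A3SS that rose and 125 nt in those that fell, against 48.0 nt over all tested, and the 2 sites were 3 nt apart in 2 pairs that rose and 1 that fell, against 635 of the 5370 pairs tested.

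**Figure D3:**
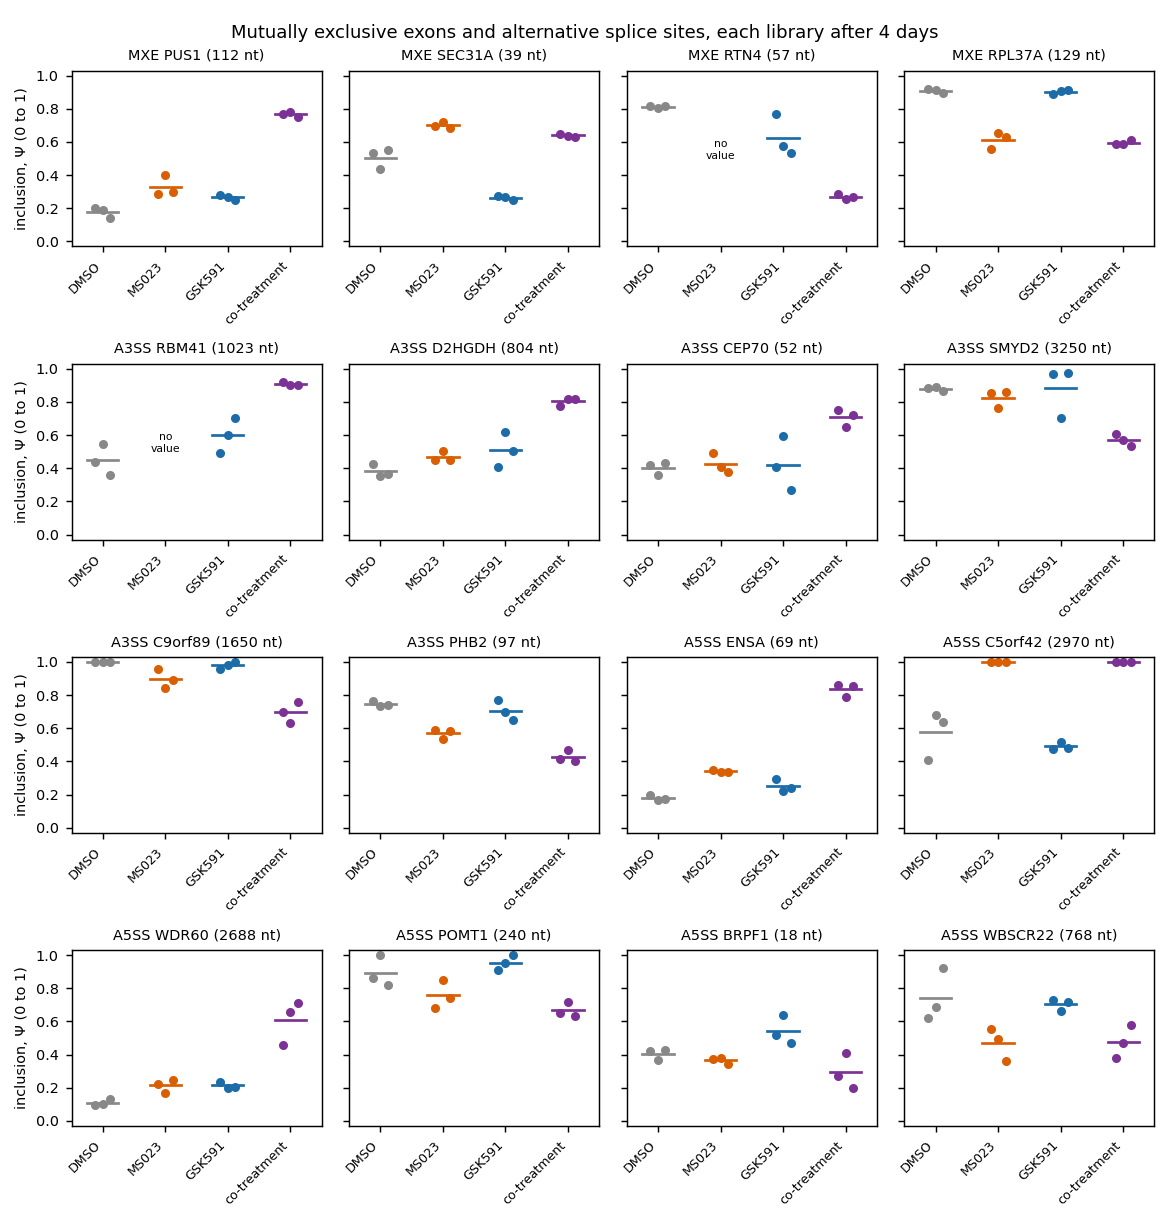
Ψ of the named mutually exclusive exons and alternative splice sites, with 1 point per library and a line at the mean of each group after 4 days, and the length of the alternative segment in the title of each panel. PUS1, ENSA and WDR60 are highest in co-treatment, and RTN4 and RBM41 have no value in MS023 here.

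Among RI, ENTHD2, an adaptor protein of vesicles, rose from 0.346 ± 0.029 to 0.656 ± 0.041 (adjusted p = 4e-07) and PSMD11, a proteasome subunit, from 0.083 ± 0.0055 to 0.390 ± 0.073 (adjusted p = 6.6e-09). PSMD11 stood at 0.722, 0.745 and 0.583 in DMSO, so co-treatment lay between GSK591 and DMSO. Its effects of MS023 with and without GSK591 differed by 3.16 on the log2 odds scale (adjusted p = 0.0256). ECHDC2, a mitochondrial hydratase, fell from 0.913 ± 0.080 to 0.480 ± 0.046 (adjusted p = 0.00032) and COMMD4 from 0.687 ± 0.125 to 0.313 ± 0.095 (adjusted p = 4.4e-06). The ECHDC2 values rest on 5 reads of the spliced form over the GSK591 libraries and 110 over those of co-treatment.

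Events in genes that act in splicing were counted next, without a test against other genes. Counting each alternative segment of SE, MXE, A3SS and A5SS once, 4761 of 72749 (6.54%) were called over all genes. In SR proteins and TRA2, which bind exonic enhancers, 10 of 71 segments (14.1%) were called, 7 higher and 3 lower. In hnRNP and PTB proteins, which often repress exons, 46 of 278 (16.5%) were called, 18 higher and 28 lower. In other splicing regulators 64 of 613 (10.4%) were called, and in spliceosome components 52 of 692 (7.51%). The median absolute ΔΨ of the called events was 0.0995 in SR proteins and TRA2 and 0.0426 in hnRNP and PTB proteins, against 0.0839 over all genes. Over all tested events, called or not, it was 0.00446 and 0.00304 in these lists, below the 0.0101 over all genes. Whether the shares called follow read depth was not tested.

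SRSF7 and SRSF6 were called on deep events, and are named after their values were seen. SRSF7 fell on an exon of 36 nt from 0.867 ± 0.013 to 0.758 ± 0.016 (adjusted p = 6.3e-18) and SRSF6 rose on an exon of 268 nt from 0.193 ± 0.0061 to 0.292 ± 0.015 (adjusted p = 1.7e-10). SRSF4 rose on an untranslated exon of 195 nt, from 0.046, 0.063 and 0.042 to 0.132, 0.220 and 0.151 (adjusted p = 1.7e-08). TRA2A, on an exon of 301 nt, had values of 0.642 ± 0.046 and 0.878 ± 0.097 (adjusted p = 0.023), and SRSF10 had 0.605 ± 0.118 and 0.751 ± 0.027 on an exon of 51 nt (adjusted p = 0.037). The calls of TRA2A and SRSF10 were lost with the dispersion trend (adjusted p = 0.0694 and 0.11) and in 5 of 6 fits that left out 1 library, where the adjusted p reached 0.174 without co-treatment library c and 0.485 without GSK591 library a.

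Of the hnRNP list, PCBP2, an RNA-binding protein of poly(C) tracts, fell on an exon of 39 nt, coding in some transcripts, from 0.571, 0.646 and 0.514 to 0.431, 0.346 and 0.401 (adjusted p = 6.9e-08). DMSO stood at 0.898 ± 0.018, so this exon was lower with GSK591 and lower still with both inhibitors. HNRNPC, which packages nascent transcripts, had values of 0.434 ± 0.093 and 0.646 ± 0.072 on an untranslated exon of 163 nt (adjusted p = 0.022), and PCBP4 had 0.088 ± 0.030 and 0.208 ± 0.042 (adjusted p = 0.020). Both were lost with the dispersion trend (adjusted p = 0.0712 and 0.0638) and in 4 of 6 fits without 1 library, where the adjusted p reached 0.205 and 0.197 without GSK591 library c. LUC7L, a U1 snRNP-associated factor, fell from 0.470, 0.261 and 0.360 to 0.123, 0.088 and 0.111 (adjusted p = 1.8e-16), beside a mean of 0.0964 in DMSO. RBM3, a cold-induced RNA-binding protein, fell from 0.811 ± 0.041 to 0.575 ± 0.0073 (adjusted p = 4.2e-07). PRPF40B, a U1-associated protein, rose from 0.622 ± 0.037 to 0.874 ± 0.048 (adjusted p = 2.3e-06). PQBP1 rose on an acceptor from 0.625 ± 0.025 to 0.822 ± 0.017 (adjusted p = 6.6e-13), and U2AF1L4, a paralogue of U2AF1, fell on another from 0.412 ± 0.037 to 0.238 ± 0.018 (adjusted p = 6.9e-08).

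Among the arginine methyltransferases and their partners 10 of 120 segments (8.33%) were called, 2 higher and 8 lower. PRMT2, a Type I enzyme, rose on an untranslated exon of 109 nt from 0.171, 0.195 and 0.178 to 0.432, 0.511 and 0.412 (adjusted p = 2.7e-22). CARM1, another Type I enzyme, fell on an exon of 134 nt from 0.976, 0.937 and 0.919 to 0.820, 0.815 and 0.672 (adjusted p = 0.00014). PRMT7 had values of 0.478 ± 0.058 and 0.649 ± 0.033 (adjusted p = 0.047), a call that was lost with the dispersion trend (adjusted p = 0.128) and in 5 of 6 fits without 1 library (up to 0.205, without GSK591 library a). In mRNA export and exon junction complex genes 18 of 195 segments (9.23%) were called. PCID2, an export factor subunit, fell from 0.983, 0.985 and 0.991 to 0.681, 0.598 and 0.577 on a coding exon of 104 nt (adjusted p = 2.3e-32). RNPS1, a splicing factor bound to the exon junction complex, rose on an exon of 188 nt from 0.628, 0.636 and 0.595 to 0.841, 0.831 and 0.829, on 1177 to 1695 reads per library (adjusted p = 6.1e-34). POLDIP3 rose on an MXE from 0.30 ± 0.0066 to 0.393 ± 0.020 (adjusted p = 0.012, and 0.0885 without co-treatment library c). In nonsense-mediated decay factors 5 of 182 segments (2.75%) were called. SMG1 fell from 0.298 ± 0.028 to 0.160 ± 0.040 (adjusted p = 0.0047, and up to 0.0892 without GSK591 library c). UPF2 had 0.966 ± 0.035 and 0.849 ± 0.063 (adjusted p = 0.040) and UPF3A 0.811 ± 0.052 and 0.891 ± 0.030 (adjusted p = 0.036). Both were lost with the dispersion trend (adjusted p = 0.107 and 0.106) and in 5 of 6 fits without 1 library, where the adjusted p reached 0.306 without co-treatment library b and 0.481 without GSK591 library c.

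Genes known for isoforms that differ between epithelial and mesenchymal cells had 102 of 772 segments called (13.2%), 49 higher, 50 lower and 3 in both directions, in 38 of 54 genes tested, against 2686 of 10572 genes (25.4%) over all. These isoforms depend on ESRP, RBFOX and other regulators, and the list was chosen for genes with known alternative exons. DST, a cytoskeletal linker, fell from 0.883, 0.870 and 0.893 to 0.489, 0.465 and 0.485 on an exon of 111 nt (adjusted p = 2.6e-27). MAP3K7, the kinase TAK1, rose on an exon of 81 nt from 0.036, 0.035 and 0.087 to 0.348, 0.356 and 0.407 (adjusted p = 9.2e-26). In 4 genes named after their values were seen, CTNND1, a catenin, fell from 0.709 to 0.456 on an exon of 119 nt, CLSTN1, a calsyntenin, fell from 0.381 to 0.0841 on one of 57 nt, NUMB, an endocytic adaptor, rose from 0.112 to 0.336 on one of 144 nt, and ENAH, an actin regulator, rose from 0.0788 to 0.183 on one of 63 nt.

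In p53 regulation and apoptosis 28 of 357 segments (7.84%) were called. XIAP, an inhibitor of caspases, rose from 0.527, 0.519 and 0.540 to 0.832, 0.800 and 0.766 on an exon of 909 nt with 877 coding bases (adjusted p = 1.9e-15). CASP8, the initiator caspase of death receptors, fell on the 45-nt exon shown above from 0.641 ± 0.080 to 0.441 ± 0.015 (adjusted p = 0.00038, and 0.0622 without GSK591 library b). DAP3 rose from 0.185 ± 0.0048 to 0.337 ± 0.063 (adjusted p = 0.00065). In DNA repair genes 44 of 1179 segments (3.73%) were called. Beside ERCC8, ALKBH3, a demethylase of alkylated bases, fell from 0.695, 0.724 and 0.835 to 0.523, 0.491 and 0.376 (adjusted p = 1.2e-05), and LIG1, the replicative ligase, rose at an acceptor from 0.247 ± 0.079 to 0.463 ± 0.063 (adjusted p = 0.0011, and 0.0984 without GSK591 library b). In cell division genes 46 of 1092 (4.21%) were called. PDS5B, a cohesin regulator, fell from 0.787, 0.836 and 0.824 to 0.449, 0.374 and 0.501 (adjusted p = 1.1e-07), CEP57 from 0.361 ± 0.145 to 0.114 ± 0.020 (adjusted p = 1.4e-07) and KIF23, a kinesin of cytokinesis, from 0.613 ± 0.087 to 0.396 ± 0.020 (adjusted p = 6.8e-05). In chromatin modifiers 55 of 1114 (4.94%) were called. WHSC1, the methyltransferase NSD2, rose from 0.224 ± 0.024 to 0.620 ± 0.166 (adjusted p = 3.2e-09) and SMARCC2, a BAF complex subunit, from 0.520, 0.618 and 0.605 to 0.873, 0.914 and 0.968 on the exon shown above (adjusted p = 9.7e-28).

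**Figure D4:**
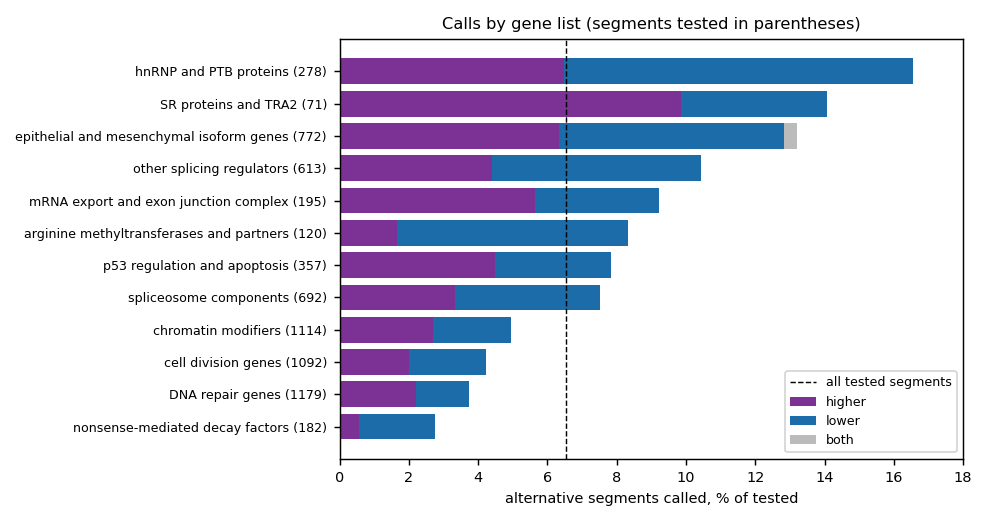
Alternative segments called in co-treatment against GSK591, as a percentage of those tested, for 12 gene lists with the number tested in parentheses, split by direction. The dashed line is the 6.54% of all tested segments, and the lists run from 2.75% for nonsense-mediated decay factors to 16.5% for hnRNP and PTB proteins.

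At 2 days, 3038 of 64656 SE (4.7%) were called for co-treatment against GSK591. Of the SE called at 4 days that were also tested at 2 days, 88.0% had the same sign, with a median change of 0.0405 in the direction of the 4-day change, against a median absolute change of 0.0865 at 4 days. Of the SE called at 2 days that were tested at 4 days, 90.7% had the same sign, with a median of 0.0443 at 4 days in the direction of the 2-day change, against 0.0853 at 2 days. Events chosen on one day's call were thus smaller on the other day in both directions. There were 1411 SE called at both times, of which 1396 moved the same way. All 58 named exon and splice-site events with a value at 2 days had the same sign at both times, RI left out. The difference between the days was called for 21 of 59004 SE (0.0356%). RNPS1 is the named event among them, with a ΔΨ of 0.075 at 2 days and 0.214 at 4 days (adjusted p = 0.0092 for the difference). CLSTN1 is another, named after its values were seen, with a ΔΨ of -0.098 at 2 days and -0.297 at 4 days (adjusted p = 0.013).

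In cells without GSK591, 3369 of 78780 SE (4.28%) were called for MS023 against DMSO. Of the SE called in the present comparison that were tested there, 75.8% had the same sign, with a median of 0.0136 in that direction, against 0.0874 here, and 26.2% were called. Of the SE called for MS023 against DMSO that were tested here, 78.5% had the same sign, with a median of 0.0219 here against 0.0710 there, and 31.4% were called here. The overlap was 985 SE, of which 923 moved the same way. Among named exon and splice-site events 48 of 58 had the same sign, RI left out. A test of the difference between the effects of MS023 with and without GSK591 called 374 of 60614 SE (0.617%), 112 MXE (0.83%), 35 A3SS (0.625%) and 34 A5SS (0.935%). The 374 SE lie in 309 genes, and in 257 of the events the 2 estimates had opposite signs. That count includes small effects that were not called, such as a ΔΨ of -0.007 for RNPS1 without GSK591. Among the 985 SE called in both comparisons, 62 moved in opposite directions. Limma on log2 odds called 1 SE for this difference and 0 for that between the days, with 4517 and 3808 SE at an unadjusted p under 0.05.

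FUT8 shows the largest such difference among the named exons. Without GSK591 its Ψ was 0.084, 0.052 and 0.088 in DMSO and 0.061, 0.053 and 0.041 with MS023, a mean difference of -0.023 that was not called, while its mean reached 0.587 with both inhibitors (adjusted p = 0.00064 for the difference). RNPS1 stood at 0.623 in DMSO and 0.616 with MS023, and at 0.62 and 0.834 without and with MS023 when GSK591 was present (adjusted p = 3.8e-06 for the difference). ALKBH3 stood at 0.891 in DMSO and 0.941 with MS023, and fell with GSK591 present (adjusted p = 0.028 for the difference). SEC31A, DEPDC1 and ENSA rose in both settings, by 0.210, 0.257 and 0.158 without GSK591 and by 0.534, 0.534 and 0.585 with it, and the difference was called for each (adjusted p = 0.0037, 0.0031 and 0.00051). EPB41L1 and RPL37A fell by 0.368 and 0.295 without GSK591 and by 0.420 and 0.307 with it, and for these 2 the difference was not called (adjusted p = 0.285 and 0.999).

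**Figure D5:**
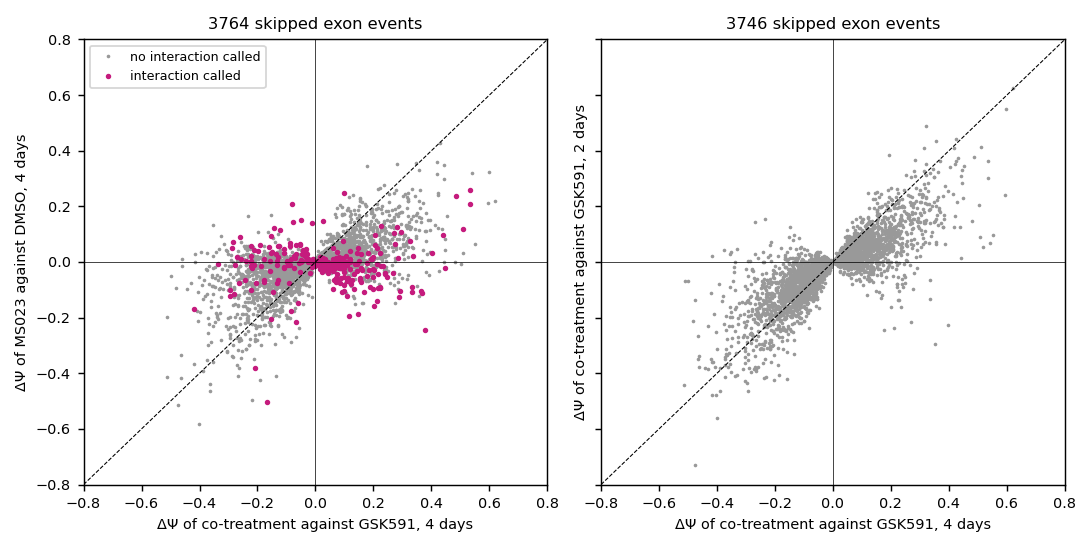
ΔΨ of co-treatment against GSK591 at 4 days (horizontal axes, both panels) for SE events called there, set against MS023 against DMSO at 4 days (left, 3764 events) and against the same addition at 2 days (right, 3746 events). Points are events, the dashed line marks equal change, and on the left the 284 events with a called interaction are coloured; points lie closer to the line on the right.

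Some of these exons also differed between GSK591 and DMSO. These values share the GSK591 libraries with the comparison above and are given side by side only. LUC7L differed by 0.267 (GSK591 minus DMSO) and by -0.256 (co-treatment minus GSK591), ARHGEF12 by 0.193 and -0.409, CEP57 by 0.204 and -0.248, and PRPF40B by -0.298 and 0.251. PCBP2 differed by -0.321 and -0.184 in the same order, IFT27 by -0.159 and -0.415, and KIF23 by -0.200 and -0.217. FUT8, DEPDC1, EPB41L1 and ATG16L1 were not called for GSK591 against DMSO, with differences of 0.064, -0.039, 0.021 and -0.039.

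Each named exon stands for 1 event, and an exon can be listed in several events with other flanking exons. Of 40 named SE, 15 had another tested event of the same exon. In 4 of these (SEC31A, NTAN1, PCBP2 and RBM3) every other event was called in the same direction, and in 11 at least 1 was not called, with 0 called in the opposite direction. The other events of SEC31A had ΔΨ of 0.388 and 0.486, and that of NTAN1 had -0.322. The other RBM3 event, with at least 2755 reads per library, moved only from 0.0352 to 0.0233. That of PCBP2, with at least 2659, moved from 0.187 to 0.0934. The deeper event of the HNRNPC exon, with at least 2249 reads per library, had a Ψ of 0.044 with GSK591 and 0.0424 with co-treatment (adjusted p = 0.965). The other TRA2A event stood at 0.103 and 0.119 (adjusted p = 0.565), and the other 4 events of the RNPS1 exon had ΔΨ between -0.00224 and 0.00163. The deepest other event of RNPS1 had a Ψ of 1.0 with GSK591 and 0.998 with co-treatment. That of UPF3A had 1.0 in both groups, so neither had room to rise. The other XIAP events had ΔΨ of 0.0208 and 0.0514, PCID2 had -0.0157, UPF3A had -0.000414 and 0, and PRMT7 had 0.032 and 0.0856. SRSF10 had 0.075, CASP8 -0.2 and -0.131, and ALKBH3 -0.146 and -0.0544, all on shallower events that were not called. Of the 2 other DAP3 events 1 was called, with a ΔΨ of 0.0907.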

How the data were processed

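Poly(A)-RNA seq reads of A549 cells (150 nt, paired) had been trimmed with Trim Galore 0.6.5, aligned to hg19 with STAR 2.4.2a and tabulated with rMATS by the authors, each inhibitor group against DMSO. The deposited tables give, for every event, whole-number counts of inclusion and skipping reads (junction reads and reads within the segment) for the 3 libraries of each group, joined in 1 cell, and the effective length of both forms. These cells carry no replicate number, and the libraries are called a, b and c in their order. The authors' own p-values, adjusted p-values, inclusion levels and differences are in the same tables and were not used, and 0 columns of single samples were left unmapped.

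Counts of both inhibitor groups were taken from their 2 tables and joined on type, chromosome, strand and all coordinates. The DMSO counts, present in both tables, were identical. Events with at least 10 reads in each of 6 libraries were tested with a quasi-binomial logistic model, with the dispersion moderated by limma 3.58.1 (squeezeVar, R 4.3.3) and held at 1 or above, an F test, and Benjamini-Hochberg adjustment within event type, with calls at an adjusted p under 0.05. Every adjusted p in the text is from this model unless another is named. Differences between effects were tested with an interaction term in the same model on log odds. Errors after ± are SD over 3 libraries for a group and SE for a difference. Median Ψ per library was compared by exact permutation with scipy 1.17.1. The model was tested on simulated counts first. Sequences and annotation came from a GRCh37 reference, the build of the tables.

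Named events had an adjusted p under 0.05, at least 50 reads in every library and groups that did not overlap, ranked by absolute ΔΨ, 1 per gene and type: 6 SE, 2 MXE, 3 A3SS, 3 A5SS and 2 RI in each direction, and up to 3 for each of 12 gene lists. Exceptions are said to be named after their values were seen. 3 events of Y-linked genes were left out of naming. The comparison, gene lists and rules were chosen with earlier results of these data known. Alternatives were other read minimums, pseudocounts, dispersions, tests and fits without 1 library. A planned negative binomial model of the counts was not run.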

Additional observations from a re-analysis of the deposited data

Results flagged for a closer look

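The effect of MS023 differed between cells with and without GSK591 in 374 SE, 112 MXE, 35 A3SS and 34 A5SS at 4 days, by the interaction term at an adjusted p under 0.05. Among the named events the difference in log2 odds of inclusion, with minus without GSK591, was 3.66 for FUT8, 2.70 for the donors of ENSA, 2.44 for RALGPS2, 2.27 for the skipped exon of SEC31A, 1.97 for PUS1, 1.94 for the acceptors of LIG1, 1.83 for DEPDC1, 1.68 for RNPS1 and 1.20 for PRMT2. It was 3.16 for the retained intron of PSMD11. It was -2.37 for ATG16L1 and -2.87 for ALKBH3.

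The difference between co-treatment and GSK591 itself differed between 4 and 2 days in 21 SE. RNPS1 was the named event among them, with a difference in log2 odds of 1.14 (4 minus 2 days). Groups of 3 libraries were not tested for single outlying libraries.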

How the results depend on the processing

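No paired analysis was possible because the 3 counts in each cell carry no replicate number. The planned negative binomial model was not run. No named event reversed its sign in any alternative run. This was fixed in advance, because naming required groups that do not overlap, and such groups keep their order in each of these runs. Of 64 named events, 46 were called in all 6 fits that left out 1 library and with a dispersion trend, and 18 were lost in at least 1 of those fits. Limma on log2 odds with 0.5 added kept 6 of the 64 calls, with 0.1 added 18, and with precision weights 34. The alternatives with a dispersion trend, precision weights and groups that do not overlap were added after the data were seen.

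The counts of calls moved most with the test. For SE, MXE, A3SS, A5SS and RI, limma with 0.5 added called 0, 26, 0, 6 and 6 events, against 3833, 873, 192, 192 and 350 (7963 SE and 566 A3SS had an unadjusted p under 0.05 in that test). With 0.1 added it called 660, 56, 23, 20 and 21, and with precision weights 768, 471, 32, 49 and 229. The dispersion trend called 2567, 775, 135, 173 and 364. Leaving out 1 library gave 2143 to 2824 SE, 529 to 734 MXE, 102 to 145 A3SS, 85 to 194 A5SS and 231 to 299 RI. Without GSK591 library a, b or c 2350, 2537 and 2519 SE were called, and without co-treatment library a or c 2143 and 2539. With an absolute ΔΨ of at least 0.05 asked as well, 547 MXE and 233 RI were called, and 534 MXE in a fit of all 4 groups. For MS023 against DMSO, limma with 0.5 added called 3 SE and the trend 1479, against 3369, and for the 2-day comparison 0 and 1835, against 3038. The interactions fell to 1 SE (with and without GSK591) and 0 SE (4 against 2 days) with limma, against 374 and 21. In limma, 6887 SE of the 2-day comparison and 4517 and 3808 SE of the interactions had an unadjusted p under 0.05. The cause of these differences was not tested.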
